A study of Caenorhabditis elegans with 39 samples.

Results

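The RNAs of 152 transposon families were compared between prg-1 and mut-16 mutants of *Caenorhabditis elegans*, using 3 libraries of each mutant among the 39 samples of the series. All 152 families with a consensus sequence in the deposited table were taken, and the 6 libraries were chosen by genotype, tissue and temperature only. The prg-1(n4357) and mut-16(pk710) animals were gravid adults grown at 20C for 68 to 70 h, and RNA came from whole worms after removal of rRNA and of short RNAs. The reference for each mutant was a set of 3 wild type (N2) libraries of the same age and temperature. Both mutant strains had been outcrossed once to N2 before they were expanded. The labels number the replicates without saying whether they were separate cultures, so p-values measure the spread between these libraries. The comparison asks in which families loss of the piRNA pathway and loss of WAGO-class siRNAs leave different amounts of transposon RNA.

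PRG-1 is the Piwi-clade Argonaute of the *C. elegans* germline and carries the piRNAs, which recognise transcripts and recruit an RNA-dependent RNA polymerase to them. MUT-16 is the scaffold of the Mutator foci, perinuclear sites where 22G-RNAs are made and from which WAGO Argonautes are loaded. The class I elements of the worm copy themselves through RNA, with long terminal repeats (the CER families) or without them (RTE-1, LINE2 and others). The class II elements move as DNA, most by cut and paste (the Tc1/mariner, MuDR, EnSpm, Harbinger and hAT groups) and the Helitrons by rolling-circle replication.

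Between 84322 and 145213 reads mapped to the families in each 20C library. The values are normalised reads, and 1 read was worth about 1 unit, so a value of 10 rests on about 10 reads. The library totals over all families were 80459, 102376 and 104710 in prg-1, 116802, 112930 and 106675 in mut-16, and 103392, 154479 and 98127 in wild type. CELE45, which the table classes as a SINE, took 35.2, 50.1 and 50.1% of the total in prg-1, 26.4, 26.8 and 26.9% in mut-16, and 35.6, 53.7 and 32.1% in wild type. In the wild type mRNA table all 8 markers of intestine, muscle and germline were present at 1140 or more in every library. The tables of the mutant whole animals hold transposon families only, so neither the tissue markers nor the mutated genes were checked in them.

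Of the families called between the mutants, far more were lower than higher in prg-1. Of the 152 families, 129 reached a value of 10 in at least 3 of the 9 libraries and were tested with limma. At an adjusted p under 0.05 and a change of at least 1.3-fold, 28 of the 129 were called (21.7%), 26 of them lower (20.2%) and 2 higher (1.55%) in prg-1 than in mut-16. The median log2 change over the 129 was -0.19. All 3 prg-1 libraries lay below all 3 mut-16 libraries in 48 tested families (37.2%), of which 26 were called, and above them in 5 (3.88%), of which 2 were called. Overlap was counted on the values as deposited and not under another scaling. With the replicate number as a block, 4 families were called higher and 28 lower. CER12-1-LTR_CE, CER15-1-LTR_CE and CER16-2-LTR_CE passed the filter on low values only through the mut-16 libraries, and CER16-I_CE only through the prg-1 libraries, which are the genotypes where they were high. Their calls therefore lend no support to the difference, and without these 4 families 23 were lower and 1 was higher. CER16-1-LTR_CE, CER2-1-LTR_CE and NPALTA1_CE, which were not called, also passed only through mut-16. They and the called mut-16 entries are among the 48 families without overlap, and CER16-I_CE is among the 5. Their lack of overlap lends no support either, nor does the call of CER16-1-LTR_CE with the replicate block. The split moved with the scaling: rescaling the libraries to each other by the median ratio over the families gave 7 higher and 22 lower, by trimmed means 6 and 23, and to equal totals 5 and 20. These 3 scalings raised the median log2 change by 0.21, 0.20 and 0.23, to 0.024, 0.012 and 0.045. Of the 129 families 70, 69 and 72 were then above 0, against 39 as deposited. The lean over all families was thus lost under them, while the calls stayed mostly lower. Another scaling, to the study's library totals, gave 3 higher and 23 lower. It used 1 mean total per genotype, so it did not correct for depth between replicates. Against the same 3 wild type libraries, prg-1 had 20 calls (15.5%), 10 higher and 10 lower (7.75% each), and mut-16 had 33 calls (25.6%), 31 higher (24%) and 2 lower (1.55%).

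**Figure D1:**
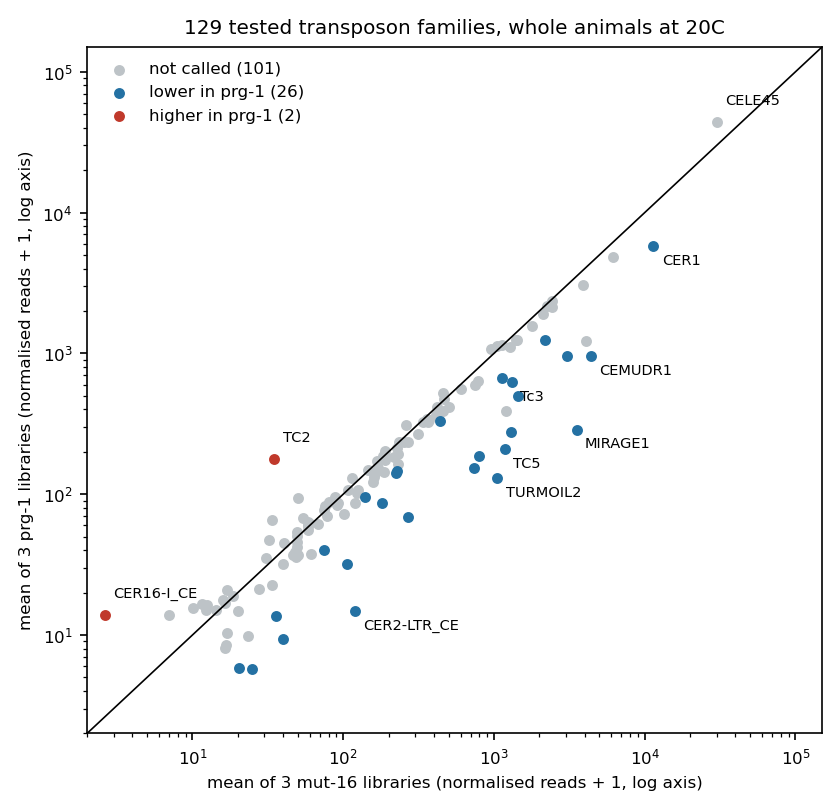
Mean normalised reads of the 3 prg-1 libraries (y axis) against the 3 mut-16 libraries (x axis) for the 129 tested families at 20C, both plus 1 and on log axes, with the line of equal values. The 26 families called lower in prg-1 lie below the line, at mut-16 means of 19.4 to 11429, and the 2 called higher lie above it.

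The calls are given by class beside the 20.2% called lower over all tested families. Among LTR retrotransposons 16 of 29 tested families were lower and 1 was higher in prg-1, with a median log2 change of -0.98 beside -0.19 over all families. The 16 belong to 11 of the 19 elements with a tested entry, since the internal part and the repeat of an element are separate entries and 5 elements had both entries called. Without the 3 repeats that passed the filter only through mut-16, 13 LTR families were lower and 3 elements had both entries called. The element CER12-1 then had no called entry. The median of -0.98 includes entries that passed the filter through 1 genotype only. Among Tc1/mariner families 4 of 13 were lower and 1 was higher, with a median of -0.27. Of the 18 tested families of the other named DNA superfamilies 4 were lower, 1 each in MuDR, EnSpm, Harbinger and Chapaev, which at 22.2% is close to the share over all families, and none of the 7 tested hAT families was called. Among the 45 DNA families without a superfamily 2 were lower, with a median of -0.080. No call was made in the 10 Helitrons (log2 changes of -0.32 to 0.26), the 11 tested non-LTR families (-0.50 to 0.35), the 2 SINEs or TC6. The Helitron NDNAX3_CE, at -0.32, had an adjusted p of 0.033 by limma and no overlap between the mutants. It missed only the 1.3-fold threshold. With the replicate block, 17 LTR families were lower and 3 higher. The 17 include CER12-1-LTR_CE, CER15-1-LTR_CE, CER16-2-LTR_CE and CER16-1-LTR_CE, which passed the filter only through mut-16. CER16-I_CE, which passed only through prg-1, is among the 3. Calls of these entries lend no support. With the block, 5 of the other named DNA superfamilies were lower, the added one being a hAT family. The counts of the other classes were as without it.

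Summed over its families, the LTR class had 12679, 9884 and 11026 normalised reads in prg-1, against 25180, 26367 and 22967 in mut-16 and 25953, 26144 and 26367 in wild type. The prg-1 sum was thus 0.451 of the mut-16 sum, and the mut-16 libraries overlapped the wild type ones. The other named DNA superfamilies summed to 10513, 8823 and 9871 in prg-1, against 23473, 20717 and 20060 in mut-16 and 11239, 12470 and 10895 in wild type. Here prg-1 stood at 0.455 of mut-16 and mut-16 lay above every wild type library. The Tc1/mariner sum was 5345, 5831 and 6322 in prg-1, 7701, 7959 and 7995 in mut-16, and 5169, 5449 and 5452 in wild type. For these 3 classes, the DNA families without a superfamily and the sums of all families with and without SINEs, the exact two-sided permutation test gave p = 0.1 for prg-1 against mut-16, the smallest value that 3 against 3 libraries allow, and 0.15 after adjustment over 9 sums. The Helitron sum averaged 3699 ± 329 in prg-1 and 3891 ± 127 in mut-16 (SD, n = 3 each, exact p = 0.5), and the non-LTR sum 1217 ± 31 in prg-1 and 1250 ± 23 in mut-16 (SD, n = 3 each, exact p = 0.2). The Helitron sums differed by less than the SD of the prg-1 libraries. The SINE sum averaged 44212 ± 13573 in prg-1 and 30135 ± 1080 in mut-16 (SD, n = 3 each, exact p = 0.4), so its spread was about as large as its difference. Whether a family's RNA came from more genomic copies, from more cells or from more RNA per copy or cell cannot be told apart in these whole-animal libraries.

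**Figure D2:**
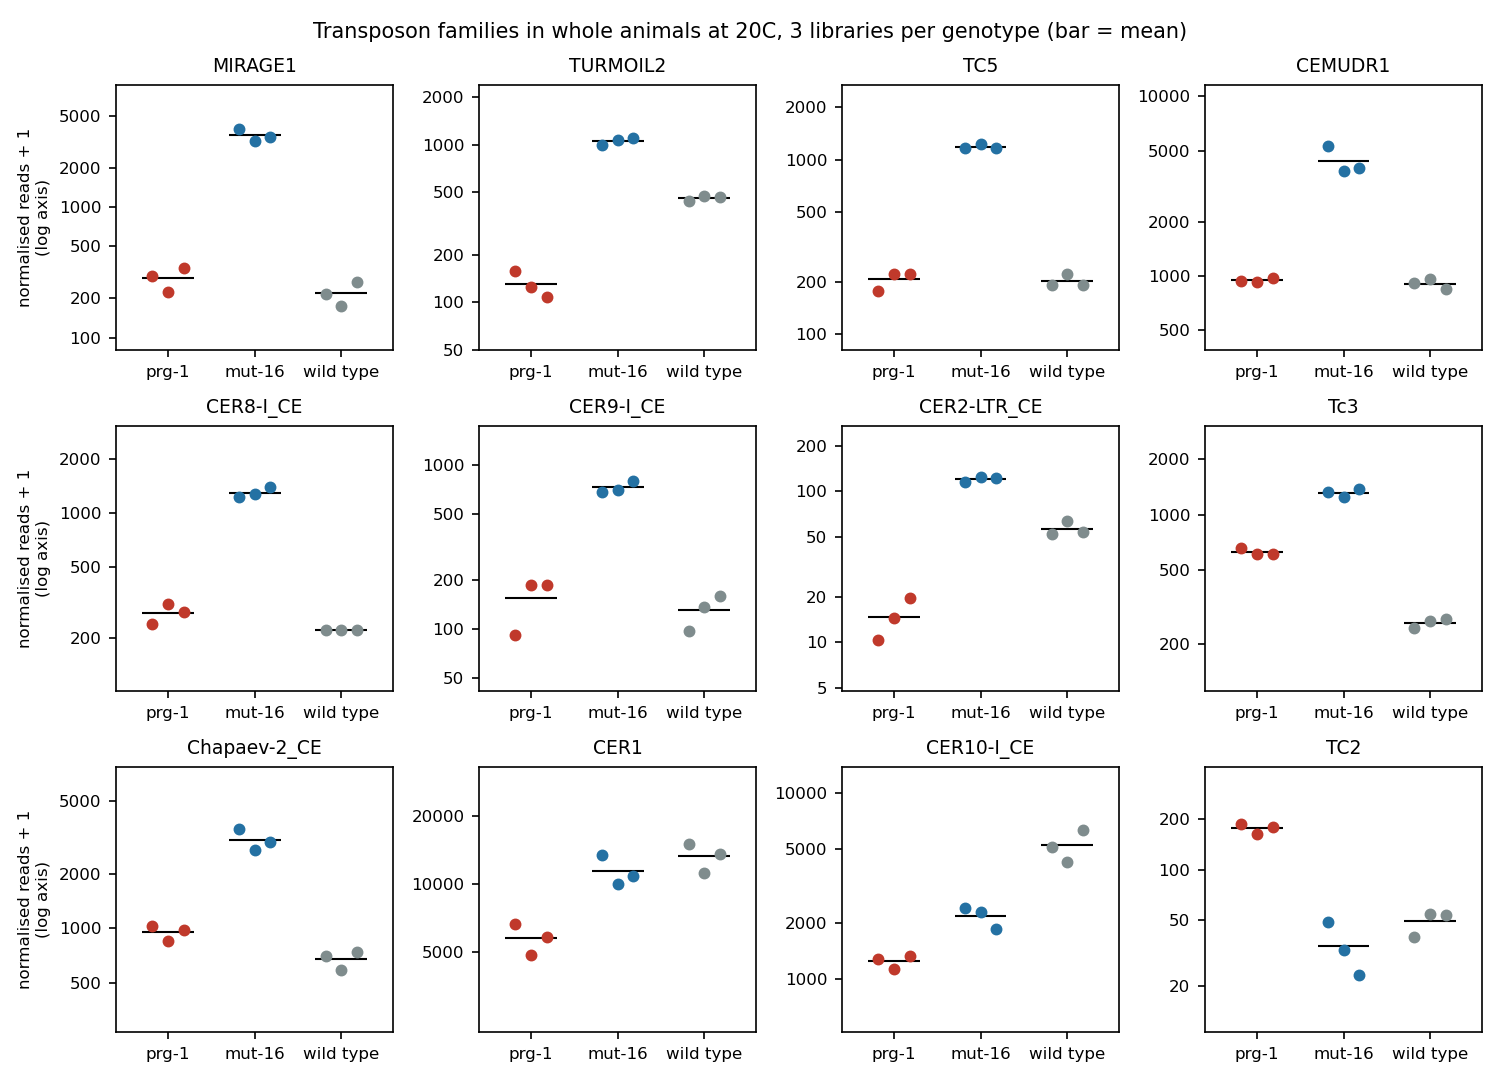
Normalised reads plus 1 (log axis, a different range in each panel) of 12 families in each of the 3 prg-1, 3 mut-16 and 3 wild type libraries at 20C, with a bar at the mean. In 11 panels every prg-1 library lies below every mut-16 library, and in the TC2 panel every prg-1 library lies above.

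The DNA transposon with the largest difference was MIRAGE1, an EnSpm (CACTA) family. MIRAGE1 had 297, 223 and 340 normalised reads in prg-1, against 3945, 3209 and 3459 in mut-16, and 214, 174 and 264 in wild type. The prg-1 libraries overlapped wild type and every mut-16 library lay far above them. The log2 change from mut-16 to prg-1 was -3.64 (SE 0.17, adjusted p = 1.10e-10 by limma), and relative to wild type it was 0.40 in prg-1 (adjusted p = 0.13) and 4.03 in mut-16 (adjusted p = 5.08e-11).

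TC5, a Tc1/mariner-like element, followed the same order. It had 177, 222 and 221 normalised reads in prg-1, 1164, 1219 and 1169 in mut-16, and 192, 221 and 192 in wild type. The log2 change between the mutants was -2.52 (SE 0.12, adjusted p = 1.31e-10 by limma), and prg-1 differed from wild type by 0.031 (95% interval -0.23 to 0.29). The entries TC5A and TC5B, named as relatives of TC5, were not called: TC5A had 2255, 2159 and 2653 in prg-1 and 2669, 2452 and 2196 in mut-16, and TC5B had 13.1, 23.2 and 29.1 in prg-1 and 27.5, 31.9 and 39.5 in mut-16. How reads that fit several related consensus sequences were assigned is not given in the sources used here, so values of such entries are uncertain.

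CEMUDR1, a family of the MuDR (Mutator-like) superfamily, had 945, 932 and 971 normalised reads in prg-1, against 5289, 3869 and 3977 in mut-16 and 915, 966 and 851 in wild type. Its prg-1 and wild type libraries overlapped, and the log2 change between the mutants was -2.19 (SE 0.12, adjusted p = 4.52e-10 by limma). The internal parts of 2 LTR retrotransposons were also far higher in mut-16. CER8-I_CE had 239, 306 and 279 in prg-1, 1218, 1275 and 1400 in mut-16, and 219, 220 and 221 in wild type, a log2 change of -2.24 between the mutants (SE 0.12, adjusted p = 2.86e-10 by limma), and its prg-1 libraries all lay slightly above the wild type ones. CER9-I_CE had 90.1, 184 and 184 in prg-1, 689, 708 and 794 in mut-16, and 96.4, 134 and 158 in wild type, a log2 change of -2.32 (SE 0.27, adjusted p = 6.89e-05 by limma). In each of these 3 families mut-16 was called higher than wild type and prg-1 was not called against wild type. The LTR entry CER12-1-LTR_CE was low throughout, with 8.45, 4.45 and 12.3 in prg-1, 39.7, 37.6 and 38.5 in mut-16, and 1.97, 8.51 and 2.33 in wild type. Its log2 change was -2.17 (SE 0.48) and rests on 5 to 14 reads in the prg-1 libraries.

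In a further set of families the mutants lay on opposite sides of wild type. TURMOIL2, a Harbinger family, had 157, 123 and 108 normalised reads in prg-1, 990, 1076 and 1097 in mut-16, and 441, 470 and 462 in wild type. No library of any genotype overlapped another genotype. The log2 change was -3.04 between the mutants (SE 0.13, adjusted p = 9.37e-11 by limma), -1.84 for prg-1 against wild type (adjusted p = 5.33e-08) and 1.20 for mut-16 against wild type (adjusted p = 3.50e-06). TURMOIL1, the other Harbinger family, had 2352, 1987 and 2181 in prg-1 and 2565, 2077 and 2093 in mut-16, so its libraries overlapped (log2 change -0.043, 95% interval -0.28 to 0.19).

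The LTR retrotransposon CER2 behaved like TURMOIL2 in each of its entries. CER2-LTR_CE had 9.38, 13.4 and 18.5 normalised reads in prg-1, 113, 123 and 120 in mut-16, and 51.2, 62.8 and 52.4 in wild type. Its internal part CER2-I_CE had 205, 161 and 190 in prg-1, 795, 747 and 848 in mut-16, and 536, 430 and 587 in wild type. The genotypes did not overlap in either entry, and the log2 change between the mutants was -3.07 for the repeat (SE 0.24, adjusted p = 5.15e-08) and -2.11 for the internal part (SE 0.13, adjusted p = 3.38e-09, both by limma). CER16-2-I_CE had 556, 472 and 452 in prg-1, 1484, 1394 and 1450 in mut-16, and 866, 932 and 1185 in wild type, and CER15-I_CE had 59.1, 70.4 and 73.2 in prg-1, 243, 267 and 288 in mut-16, and 95.4, 163 and 109 in wild type. Both were called lower than wild type in prg-1 and higher than wild type in mut-16. The repeat CER16-2-LTR_CE was low, at 2.82, 3.56 and 7.93 in prg-1, 20.4, 22.2 and 29.3 in mut-16, and 14.8, 8.51 and 18.6 in wild type (log2 change between the mutants -2.20, SE 0.42).

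In both entries of the abundant CER1 retrotransposon, prg-1 was below mut-16 and wild type alike. CER1, a Gypsy-class element that assembles particles in the germline, had 6699, 4884 and 5855 normalised reads in prg-1, against 13424, 10047 and 10817 in mut-16 and 15017, 11152 and 13646 in wild type. Every prg-1 library lay below every library of the other genotypes, and mut-16 overlapped wild type. The log2 change was -0.98 between the mutants (SE 0.18, adjusted p = 4.76e-04 by limma), -1.19 for prg-1 against wild type (adjusted p = 1.18e-04) and -0.22 for mut-16 against wild type (adjusted p = 0.38). Its repeat, LTRCER1, had 820, 528 and 667 in prg-1, 1285, 1031 and 1059 in mut-16, and 1385, 1137 and 1350 in wild type (log2 change between the mutants -0.76, SE 0.15, adjusted p = 9.69e-04 by limma). CER1 alone made up 38.1 to 53.3% of the LTR sum in these 6 libraries.

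CER10-I_CE was the internal part in which both mutants were called below wild type. It had 1274, 1137 and 1331 normalised reads in prg-1, 2414, 2294 and 1845 in mut-16, and 5101, 4251 and 6275 in wild type, with no overlap between genotypes. The log2 change was -0.80 between the mutants (SE 0.14, adjusted p = 4.49e-04 by limma), -2.05 for prg-1 and -1.24 for mut-16 against wild type. Its repeat CER10-LTR_CE did not share this order: it had 12.2, 14.2 and 11.5 in prg-1, 37.7, 28.0 and 39.5 in mut-16, and 8.86, 10.6 and 17.5 in wild type, and was called higher in mut-16 than in wild type.

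**Figure D3:**
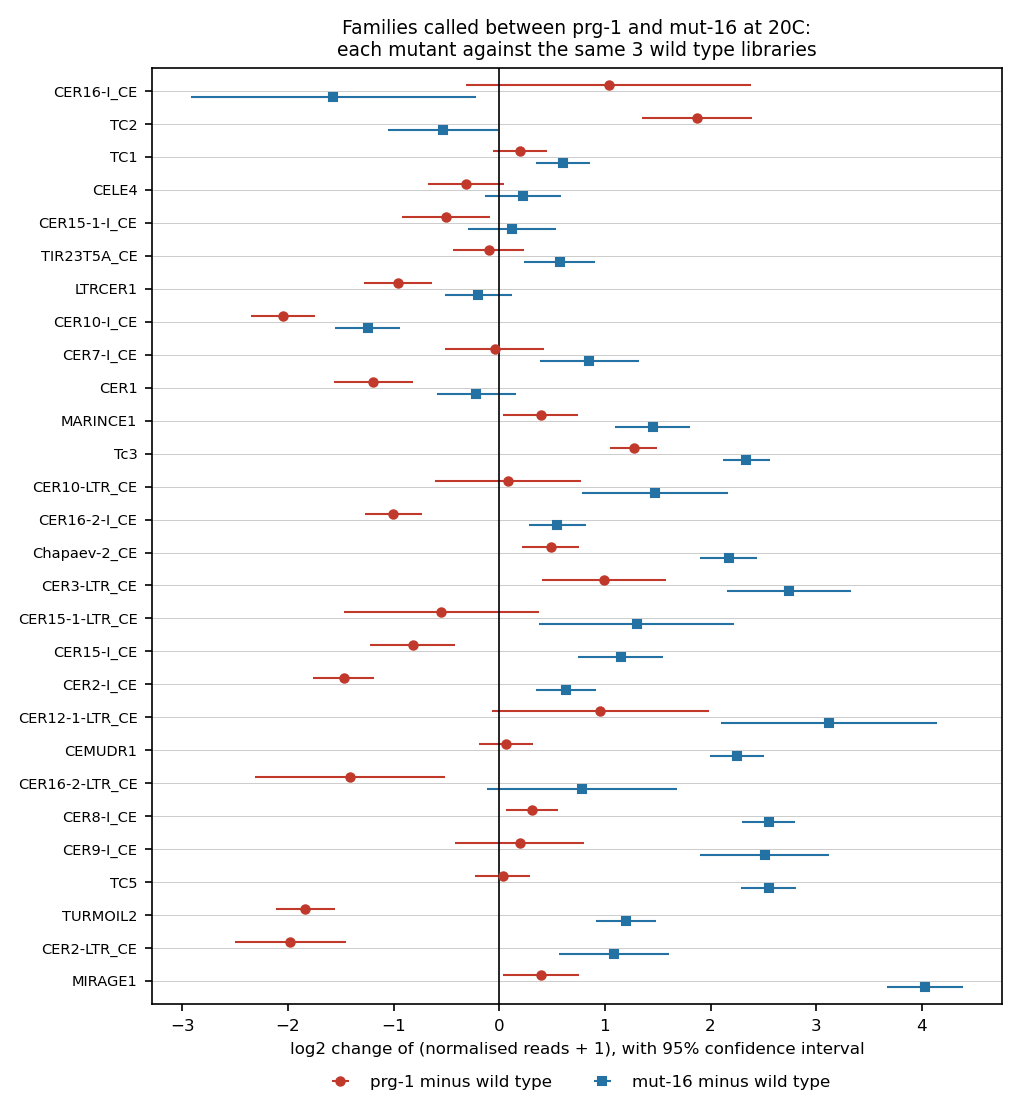
Log2 change of normalised reads plus 1 for prg-1 minus wild type (circles) and mut-16 minus wild type (squares) at 20C, with 95% confidence intervals, for the 28 families called between the mutants. The 2 contrasts share the 3 wild type libraries. MIRAGE1 lies at 0.40 for prg-1 and 4.03 for mut-16, TURMOIL2 at -1.84 and 1.20, and CER1 at -1.19 and -0.22.

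Some families were above wild type in prg-1 as well, and higher still in mut-16. Tc3, a Tc1/mariner transposon that is mobile in mutator strains, had 662, 609 and 609 normalised reads in prg-1, 1320, 1243 and 1383 in mut-16, and 242, 266 and 270 in wild type. The 3 genotypes were fully separated, with a log2 change of -1.07 between the mutants (SE 0.10, adjusted p = 5.83e-07 by limma), 1.27 for prg-1 against wild type and 2.34 for mut-16 against wild type. Chapaev-2_CE, a DNA transposon, had 1027, 848 and 976 in prg-1, 3519, 2688 and 2996 in mut-16, and 707, 590 and 739 in wild type (log2 change between the mutants -1.69, SE 0.13, adjusted p = 2.49e-08 by limma). CER3-LTR_CE had 40.3, 24.0 and 28.2 in prg-1, 130, 94.6 and 91.1 in mut-16, and 19.7, 13.8 and 11.6 in wild type (log2 change between the mutants -1.75, SE 0.27, adjusted p = 1.21e-04 by limma). The log2 change of prg-1 against wild type was 0.49 for Chapaev-2_CE and 0.99 for CER3-LTR_CE, both called.

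The remaining 7 lower calls included TC1 and MARINCE1. TC1, the first transposon found to jump in the worm, had 303, 329 and 362 normalised reads in prg-1, 434, 398 and 487 in mut-16, and 279, 288 and 298 in wild type. Its log2 change between the mutants was -0.41 (SE 0.12, adjusted p = 0.020 by limma), but the call was lost under all 4 other scalings, with adjusted p of 0.13 to 0.65, and when prg-1 replicate 1, prg-1 replicate 2 or mut-16 replicate 3 was left out (adjusted p of 0.068, 0.058 and 0.097). The related entry TC1A, at 972, 1384 and 1363 in prg-1 and 1123, 1525 and 1540 in mut-16, was not called. MARINCE1, another Tc1/mariner family, had 95.7, 79.3 and 81.1 in prg-1, 196, 165 and 176 in mut-16, and 58.1, 59.6 and 78.0 in wild type (log2 change -1.06, SE 0.16, adjusted p = 1.16e-04 by limma). The others were CER7-I_CE (-0.90), TIR23T5A_CE (-0.67), CER15-1-LTR_CE (-1.85), CER15-1-I_CE (-0.62) and CELE4 (-0.55). CELE4 and CER15-1-I_CE also lost their calls under all 4 other scalings and without several single libraries, and CER15-1-LTR_CE (2.67 to 7.05 in prg-1, 13.5 to 24.4 in mut-16) failed the filter on low values without any 1 of the mut-16 libraries. At equal library totals CER7-I_CE, TIR23T5A_CE, CER10-I_CE and LTRCER1 were not called (adjusted p of 0.098, 0.17, 0.12 and 0.17), and LTRCER1 was not called under median-ratio scaling (adjusted p = 0.051, all by limma).

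TC2 went the other way. It is a Tc1/mariner family, and it had 188, 163 and 180 normalised reads in prg-1, against 47.9, 31.9 and 22.3 in mut-16 and 38.4, 53.2 and 52.4 in wild type. Every prg-1 library was above every other library, and mut-16 overlapped wild type. The log2 change was 2.41 between the mutants (SE 0.24, adjusted p = 8.09e-07 by limma), 1.87 for prg-1 against wild type (adjusted p = 3.12e-05) and -0.54 for mut-16 against wild type (adjusted p = 0.13). The other family called higher, the LTR internal part CER16-I_CE, had 12.2, 12.5 and 14.1 in prg-1, 0, 2.90 and 2.02 in mut-16, and 9.84, 2.13 and 8.15 in wild type. These values stand for 13, 14 and 16 reads in prg-1 and 0, 3 and 2 reads in mut-16. The log2 change of 2.61 (SE 0.63) was 1.46 with a pseudocount of 5, and since only the prg-1 libraries reached 10, without any 1 of them the family no longer passed the filter on low values.

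CER6-I_CE and CER5-I_CE were also above mut-16 on average. CER6-I_CE had 55.4, 113 and 111 normalised reads in prg-1, 29.5, 40.5 and 76.9 in mut-16, and 17.7, 18.1 and 20.9 in wild type. CER5-I_CE had 33.8, 91.7 and 69.6 in prg-1, 11.2, 37.6 and 49.6 in mut-16, and 6.89, 17.0 and 15.1 in wild type. Replicate 1 was the lowest in each mutant for each of these entries, and the mutants overlapped. The log2 change was 0.96 for CER6-I_CE (adjusted p = 0.057, and 0.0073 with the replicate block), and 1.09 for CER5-I_CE (adjusted p = 0.22, and 0.0037 with the replicate block, all by limma). CER6-I_CE was called in 8 of 21 refits, among them those under all 4 other scalings (adjusted p of 0.0061 to 0.035), and CER5-I_CE in 1. The block also called CER16-1-LTR_CE, which passed the filter only through mut-16 (log2 change -1.51, adjusted p = 0.059 without the block and 0.014 with it) and the hAT entry PAL8C_5 (-0.68, 0.064 and 0.029, by limma).

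In a few abundant families 1 library stood apart from the others of its genotype. TC4, a DNA transposon that moves in mutator strains, had 434, 2509 and 437 normalised reads in prg-1, 1131, 1009 and 983 in mut-16, and 433, 495 and 498 in wild type. Only prg-1 replicate 2 was above mut-16, and the other prg-1 libraries were within the wild type range. The log2 change was -0.41 (SE 0.67, adjusted p = 0.74 by limma) with all libraries and -1.25 (adjusted p = 5.85e-07) without prg-1 replicate 2. The LTR internal part CER3-I_CE had 1735, 1031 and 890 in prg-1, 2144, 7144 and 3010 in mut-16, and 1690, 6725 and 2076 in wild type. Merlin1m_CE had 464, 411 and 290 in prg-1, 464, 2099 and 1065 in mut-16, and 634, 2396 and 1019 in wild type. In both, replicate 2 was the highest of the mut-16 and of the wild type libraries, and the adjusted p between the mutants was 0.17 and 0.22 (limma). CELE45, the most abundant entry, had 28359.7, 51270.3 and 52479.8 in prg-1, 30814, 30280 and 28746 in mut-16, and 36825, 83011 and 31530 in wild type, with a log2 change of 0.50 between the mutants (SE 0.34, adjusted p = 0.33 by limma). Its highest library was a wild type one.

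**Figure D4:**
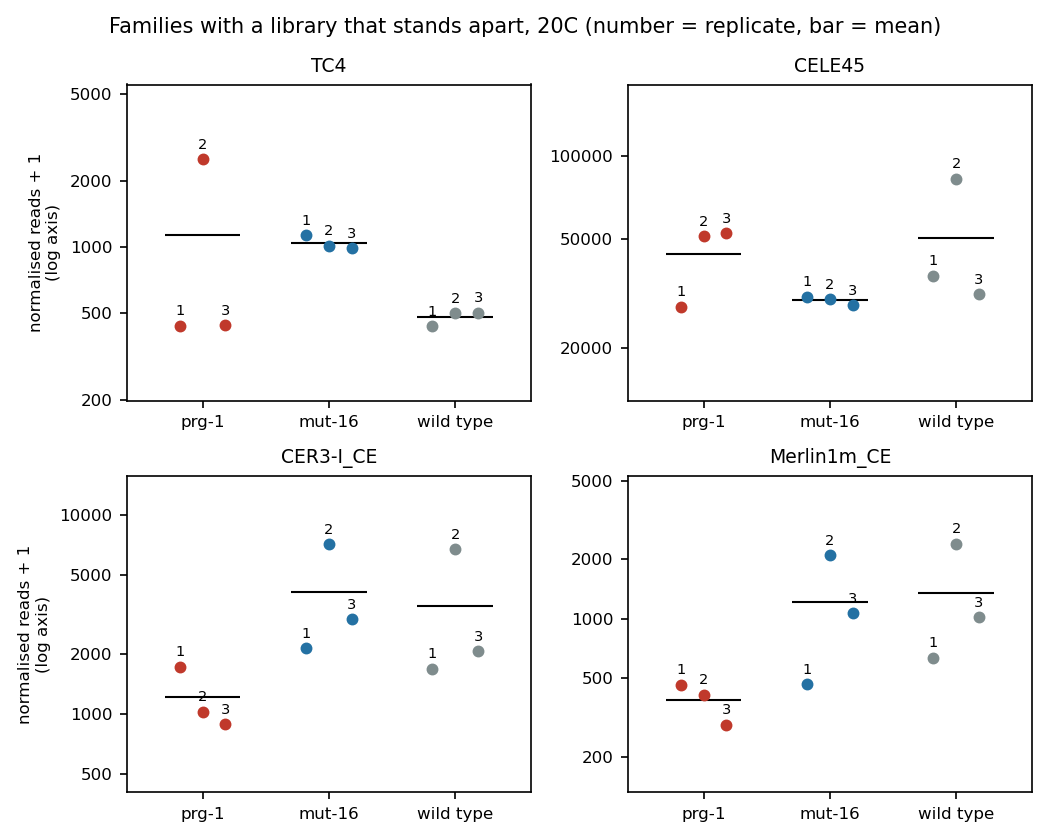
Normalised reads plus 1 (log axis) of TC4, CELE45, CER3-I_CE and Merlin1m_CE in each 20C library, numbered by replicate, with a bar at the mean of each genotype. TC4 reached 2509 in prg-1 replicate 2 against 434 and 437 in the other prg-1 libraries, and replicate 2 was the highest wild type library of CELE45, CER3-I_CE and Merlin1m_CE.

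The other well studied elements did not pass the test. The non-LTR retrotransposon RTE-1 had 495, 566 and 509 normalised reads in prg-1, 444, 457 and 483 in mut-16, and 417, 430 and 435 in wild type. Every prg-1 library was the higher, but the log2 change was 0.18 (SE 0.10, adjusted p = 0.25 by limma), and it was called only when the libraries were rescaled by the median ratio (0.39) or trimmed means (0.38). TC6 had 1598, 1478 and 1644 in prg-1, 1984, 1683 and 1734 in mut-16, and 1714, 1724 and 1691 in wild type (log2 change -0.19, adjusted p = 0.20 by limma). The abundant families PAL5A_CE (5005, 4721 and 4813 in prg-1, 6855, 5998 and 5711 in mut-16) and Chapaev-1_CE (3508, 2580 and 3059 in prg-1, 4544, 3633 and 3529 in mut-16) had adjusted p of 0.066 and 0.067 (limma).

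Among the MARINER entries, MARINER2_CE had a log2 change of -0.27 (adjusted p = 0.24), MARINER3_CE of 0.12 (0.65) and MARINER5_CE of 0.14 (0.62, all by limma), and MARINER4_CE, at 4.83 to 12.5 in the 6 mutant libraries, was not tested. The HELITRON entries lay between -0.31 for HELITRON1_CE (adjusted p = 0.14) and 0.26 for HELITRONY1A_CE (adjusted p = 0.23). HELITRON2_CE had a log2 change of -0.15, HELITRONY1_CE of 0.0094, HELITRONY2_CE of -0.092, HELITRONY3_CE of 0.0032 and HELITRONY4_CE of 0.17, with adjusted p of 0.34 to 1.00 (limma). HELITRONY1A_CE was called higher under median-ratio (0.47, adjusted p = 0.031) and trimmed-mean scaling (0.46, adjusted p = 0.038), and HELITRONY4_CE under median-ratio scaling (0.38, adjusted p = 0.016, all by limma). Rescaling the libraries or leaving out 1 of them turned the sign of 4 of these 7 HELITRON values.

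Of the 23 families that were not tested, 1 had no read in any of the 9 libraries and the median of the highest value was 7.51. In 22 of them no library exceeded 12.8. The exception was CER13-I_CE, with 1.88, 4.45 and 0.882 normalised reads in prg-1, 1.02, 86.9 and 3.04 in mut-16, and 3.94, 5.32 and 2.33 in wild type. A single mut-16 library therefore carried 79.2% of its signal over the 9 libraries at 20C.

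The same genotypes were also sequenced as gravid adults after 54 h at 25C, in 3 further libraries each, so temperature and age cannot be told apart. The 25C table was scaled apart from the 20C table, and the difference between the temperatures was not tested. At 25C 41 of 130 tested families were lower (31.5%) and 4 were higher (3.08%) in prg-1 than in mut-16, 45 in all (34.6%). The 41 include CER13-I_CE, which passed the 25C filter on low values only through mut-16, so its call lends no support. The other families were not checked for this at 25C. Of the 26 families lower at 20C, 22 (84.6%) were lower at 25C too, making up 53.7% of the 41. The 22 include CER12-1-LTR_CE, CER15-1-LTR_CE and CER16-2-LTR_CE, which passed the 20C filter on low values only through mut-16. Their place among the 26 therefore lends no support. None of the 28 families called at 20C was called in the opposite direction at 25C.

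MIRAGE1 had 514, 518 and 475 normalised reads in prg-1 and 3242, 3108 and 3361 in mut-16 at 25C, a log2 change of -2.69 (SE 0.07, adjusted p = 5.06e-18 by limma), with wild type at 920, 976 and 1034. TURMOIL2 had 125, 142 and 140 in prg-1 and 1296, 1199 and 1083 in mut-16 (log2 change -3.13), and CER9-I_CE had 88.1, 131 and 121 in prg-1 and 1453, 1730 and 1643 in mut-16 (log2 change -3.83). TC4, which had a library apart at 20C, had 464, 414 and 437 in prg-1, 1348, 1156 and 1264 in mut-16, and 385, 423 and 427 in wild type at 25C (log2 change -1.52, SE 0.09, adjusted p = 3.12e-12 by limma). In these 4 families all prg-1 libraries lay below all mut-16 libraries at 25C.

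TC2 had 184, 207 and 198 normalised reads in prg-1, 137, 108 and 104 in mut-16, and 104, 94.4 and 78.5 in wild type at 25C, and was again higher in prg-1 (log2 change 0.76, SE 0.14, adjusted p = 9.78e-05 by limma). CER16-I_CE had 9.69, 16.9 and 14.8 in prg-1 and 9.12, 6.56 and 13.0 in mut-16 at 25C, which overlapped (log2 change 0.50, adjusted p = 0.40 by limma). The 4 families lower at 20C and not called at 25C were CER1, LTRCER1, CER10-I_CE and CELE4. At 25C CER10-I_CE still lay lower without overlap (log2 change -0.35, adjusted p = 0.019 by limma) and missed only the 1.3-fold threshold. LTRCER1 lay higher (0.29, adjusted p = 0.019), also under the threshold, and CELE4 was at -0.27 (adjusted p = 0.20, both by limma). CER1 had 4985, 5212 and 5156 in prg-1, 4357.2, 4253.3 and 4397.7 in mut-16, and 3665, 4527 and 4850 in wild type at 25C. The 20C prg-1 libraries were thus the lowest of their temperature, and the separate 25C prg-1 libraries the highest of theirs. The log2 change of CER1 at 25C was 0.24 (SE 0.08, adjusted p = 0.024 by limma), under the 1.3-fold threshold. TURMOIL1, without a call at 20C, had 3078, 3190 and 3059 in prg-1 and 2189, 2233 and 2308 in mut-16 at 25C, a log2 change of 0.47 (SE 0.06, adjusted p = 1.81e-06 by limma).

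**Figure D5:**
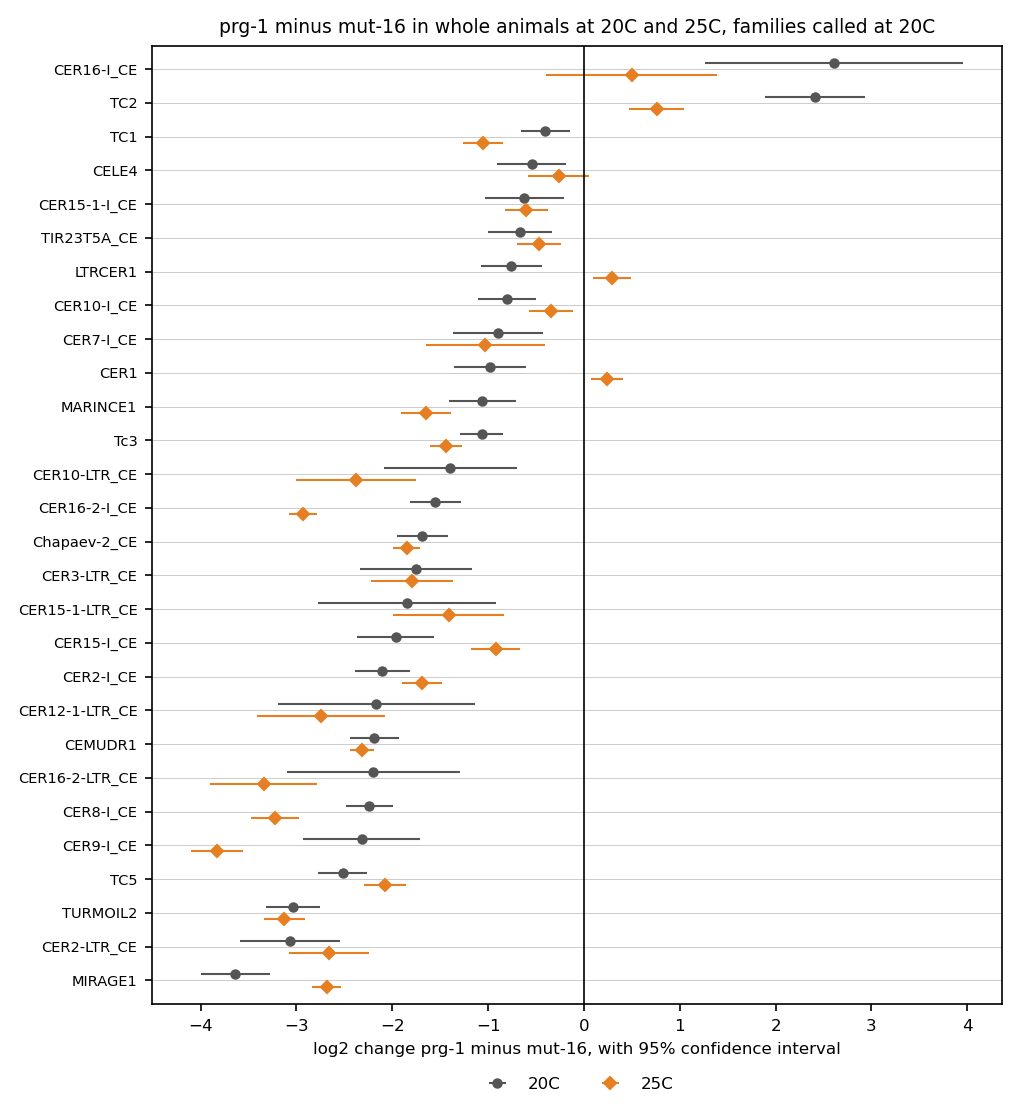
Log2 change of normalised reads plus 1, prg-1 minus mut-16, at 20C (circles) and 25C (diamonds) with 95% confidence intervals, for the 28 families called at 20C. The values lie on the same side of 0 at both temperatures in 26 families, and CER1 (-0.98 at 20C, 0.24 at 25C) and LTRCER1 (-0.76 and 0.29) are the exceptions.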

How the data were processed

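The authors trimmed single-end reads of rRNA-depleted RNA with Trimmomatic (version 0.35), mapped them with STAR (version 2.5.0a) to 152 transposon consensus sequences and counted them with SAMtools (version 1.6). DESeq2 (version 1.18.1) was used by the authors, and the source of the library factors in the tables is not given in the sources used here. The deposited values are a normalised signal: every value was a whole multiple of 1 step per library (tolerance 1e-06), and 1 step was taken as 1 read. The wild type mRNA table of deposited normalised signal served only for the marker check.

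Here log2(value + 1) was fitted with limma (version 3.58.1, R 4.3.3, trend and robust) over the 9 libraries of a temperature, with genotype as the term and Benjamini-Hochberg adjustment over all families tested. A fold change on this scale understates the change of low families. Families needed a value of 10 or more in at least 3 libraries. A family was called at 1.3-fold or more with an adjusted p below 0.05. Class sums were compared with an exact two-sided permutation test (SciPy). The sum of all families is 1 of the 9 sums, and a sum without SINEs, another of them, was added after the data were seen. Classes are those in the deposited names. The fit was also run on simulated counts as a check of the code. They had the same dispersion in every family, no outlying library and no shared deviation of same-numbered libraries, unlike these data.

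Named families were up to 10 with the largest called change in each direction, the 5 with the highest mean, and the elements TC1 to TC6, MIRAGE1, TURMOIL1, TURMOIL2, CER1, RTE-1, MARINER and HELITRON. A further 13 called families and 10 others were named after their values were seen. Members and lists were chosen with earlier results of these data known. Same-numbered prg-1 and mut-16 libraries deviated together from their group means (correlations of 0.31, 0.24 and 0.13 over the families). Only the fit with the replicate block took the numbers to pair the libraries. All other fits and the permutation tests ignored the pairing. The pairing comes from the data and not from the labels. Consensus sequences, gonad and small RNA tables were not used here.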

Additional observations from a re-analysis of the deposited data

Results flagged for a closer look

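In 3 families all prg-1 libraries lay below all mut-16 libraries at 20C and above them at 25C. CER1 had a log2 change of -0.98 at 20C and 0.24 at 25C, its repeat LTRCER1 had -0.76 at 20C and 0.29 at 25C, and TIR21T5A_CE had -0.27 at 20C and 0.21 at 25C. CER1 and LTRCER1 are parts of 1 element and are not separate cases. TIR21T5A_CE was not called at either temperature. The difference between the temperatures was not tested in any of the 3, because the tables were scaled apart, and age differed with temperature.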

How the results depend on the processing

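The count of families lower in prg-1 stayed within 18 to 28 under 23 alternatives, against 26, and between 24 and 27 when any 1 of the 9 libraries was left out. The count of families higher, 2, was 7 under median-ratio scaling, 6 under trimmed-mean scaling, 5 at equal library totals, 4 with the replicate block, 1 without the 3 libraries numbered 2, and 1 to 3 without any 1 library. No call between the mutants was reversed, and 19 of the 28 called families, 18 of them lower, were called under all 21 refits. The 18 include CER12-1-LTR_CE and CER16-2-LTR_CE, which passed the filter on low values only through mut-16. Their repeated calls lend no support to the difference. The replicate block added 4 calls and ended none. Limma's voom on recovered reads and leaving out the libraries numbered 2 were chosen after seeing the data. The planned fits with edgeR and DESeq2 were not run: the deposited values are normalised, and the table has too few low values to establish that its steps are whole reads. The read numbers given above and the voom fit take 1 step as 1 read.

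Under median-ratio scaling, trimmed-mean scaling and equal totals the log2 ratio of the sums was -0.93, -0.94 and -0.89 for LTR retrotransposons, -0.92, -0.93 and -0.88 for the other DNA superfamilies, -0.23, -0.24 and -0.20 for Tc1/mariner, 0.026, 0.015 and 0.053 for DNA families without a superfamily, 0.14, 0.13 and 0.16 for Helitrons, 0.18, 0.16 and 0.21 for non-LTR families, and -0.45, -0.46 and -0.42 for all families but SINEs. The sum of all families gave -0.019 and -0.029 under the first pair. The log2 ratios as deposited were -1.15, -1.14, -0.43, -0.19, -0.073, -0.039, -0.67 and -0.23 in this order of sums. Equal totals are driven by CELE45, which takes up to 50.1% of the total over all families in a mutant library and 53.7% in a wild type one.

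These scalings move all families alike, and of the 129 tested families 31, 30 and 33 changed sign under them, none of them a called family. Among the named families these were HELITRON2_CE (0.057, 0.045 and 0.079), HELITRONY2_CE (0.12, 0.11 and 0.14), TC6 (0.021, 0.0089 and 0.043), TURMOIL1 (0.17, 0.16 and 0.19, and 0.025 with the study's library totals), TC1A (0.038, 0.026 and 0.060) and TC5A (0.16, 0.15 and 0.18, and 0.017 with the study's library totals). Without any 1 library the log2 change lay between -0.31 and 0.0037 for HELITRON2_CE, -0.079 and 0.11 for HELITRONY1_CE, -0.15 and 0.22 for HELITRONY3_CE, -0.10 and 0.056 for TURMOIL1, -0.14 and 0.016 for TC5A, and -1.25 and 0.012 for TC4. Without the 3 libraries numbered 2 it was -0.14 for HELITRONY1_CE, -0.028 for HELITRONY3_CE and 0.015 for TC5A.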

Other observations

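CER13-I_CE, which was not tested at 20C, had 3.87, 2.98 and 0 normalised reads in prg-1, 98.3, 161 and 160 in mut-16, and 14.2, 12.7 and 5.03 in wild type at 25C. All 3 mut-16 libraries were high at 25C, against 1 of 3 (86.9) at 20C. At 25C CELE45 had 134220, 131858 and 153731 in prg-1, 133213, 116728 and 117569 in mut-16, and 93124, 91163 and 90557 in wild type, so that the wide spread between its 20C libraries was not seen there.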
